A study of Mus musculus with 15 samples.

Results

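Arhgef12 is described here through 2 readouts of embryonic forelimb. They are the inclusion of 1 cassette exon in RNA sequencing, and RNA tags along the gene recovered by crosslinking and immunoprecipitation for the muscleblind protein Mbnl3. The gene was chosen from measured values. It has 1 of the 98 events, in 84 genes, that the authors' deposited table lists as changed between knockout and wild-type (WT) forelimb. It also has a cluster of tags near its 3′ end that was sparse in the mutant libraries. The tags lie in the interval chr9:42771000-42915000 of mouse build mm9, on the minus strand, and form 76 of the 191766 clusters of the forelimb libraries, a cluster being a run of overlapping tags on 1 strand. The exon change and the depth of the 3′ cluster in mutant against WT libraries are therefore descriptions. Where a p or a call from the same contrast is printed, it is one of the values the selection used, and nothing is supported with it.

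Arhgef12, also called LARG, encodes a guanine nucleotide exchange factor that loads the small GTPase RhoA with GTP. An RGS-like domain lets it respond to G proteins of the G12/13 class, and a PDZ domain binds plexin B receptors, so that signals at the cell surface reach the actin cytoskeleton. Muscleblind proteins bind RNA and control which exons are kept. In the 3′ part of messages they are also known to affect which end is used, and where the message goes in the cell.

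Crosslinking and immunoprecipitation with sequencing (HITS-CLIP), in which ultraviolet light fixes a protein to its RNA and an antibody recovers the fragments, was done on 3 replicates in each of 3 groups, with 5 µg of antibody Mb3/7. The groups were BL6 Mbnl3 ΔE2/ΔE2 forelimb at embryonic day 15 (ΔE2), C2C12 cells, a WT mouse myoblast line kept with 20% serum, and BL6 WT forelimb at embryonic day 15. Each forelimb replicate pooled 4 forelimbs of 2 embryos, and each C2C12 replicate pooled 5 plates. Polyadenylated RNA of female embryonic day 15 forelimb was sequenced in 3 Mbnl3 ΔE2/ΔE2 and 3 WT embryos. The labels give no strain for the sequenced RNA. Whole forelimb holds muscle, cartilage, skin and blood together, so fewer cells of a type and less RNA per cell cannot be told apart in any value below. CLIP tags also depend on how much of an RNA is present. No expression value per library was used here, and the part of RNA level in the tag counts was not tested. The ΔE2 group is a mutant of Mbnl3 itself, and which protein its tags were crosslinked to was not tested.

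The 6 forelimb CLIP libraries held 35413 to 124309 unique tags each, and the combined C2C12 set held 550124. A tag is a unique combination of position, strand and a random barcode, here called a molecule. ΔE2 replicates 2 and 3 shared 33916 molecules, 83.7% of replicate 2 and 57.4% of replicate 3, and were joined into 1 library of 65730 tags, so the ΔE2 group counts as n = 2. Of the tags in ΔE2 replicate 1, 35.5% were also found in a WT library. WT replicates 2 and 3 shared 32.4% of the tags of replicate 2 and 19.3% of those of replicate 3. The deposited names of the ΔE2 libraries carry a different number from those of the other sets, which no label explains, so whatever it stands for cannot be told apart from genotype. Intervals below are exact and cover counting error only.

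The cassette exon of Arhgef12 was included less in knockout than in WT forelimb. In the authors' deposited table, whose values are estimated tag counts summed per group, the junctions into and out of the exon had 130.1 and 150.1 tags in the knockout column, against 107 and 107 tags in the WT column. The junction that skips the exon had 107.9 tags in the knockout column and 35.98 tags in the WT column of the authors' deposited table. Skipping tags were thus 3.00 times as many in knockout, while inclusion junction tags were 1.31 times as many. A header of the table names a different muscleblind gene for the mutant, and the column is called the knockout column here for that reason.

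Inclusion was 56.5% in the knockout column and 74.8% in the WT column of the authors' deposited table, a difference of -18.4 percentage points. Counting intervals were 50 to 62.7% for knockout (140 of 248 tags after rounding) and 66.9 to 81.7% for WT (107 of 143). They show the precision of each value and, since the event was listed for its change, are no test of the difference. The exon was less included by either junction alone. The first junction gave 54.6% in knockout and 74.8% in WT, and the second 58.2% in knockout and 74.8% in WT. The table holds totals of the 3 embryos per group, so the spread between embryos is not known. Tags within the exon body numbered 23 in knockout and 21 in WT, too few to add to the junctions. As values of the selection, the event has in the authors' deposited table a Fisher's exact p = 3.62e-05, the test named in its header, and adjusted p = 0.00223, at rank 46 by p. From p, rank and adjusted p, about 2834 events had been tested and 187 (6.60%) ranked as high as the last one listed, and the 98 listed are 3.46% of those tested.

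**Figure D1:**
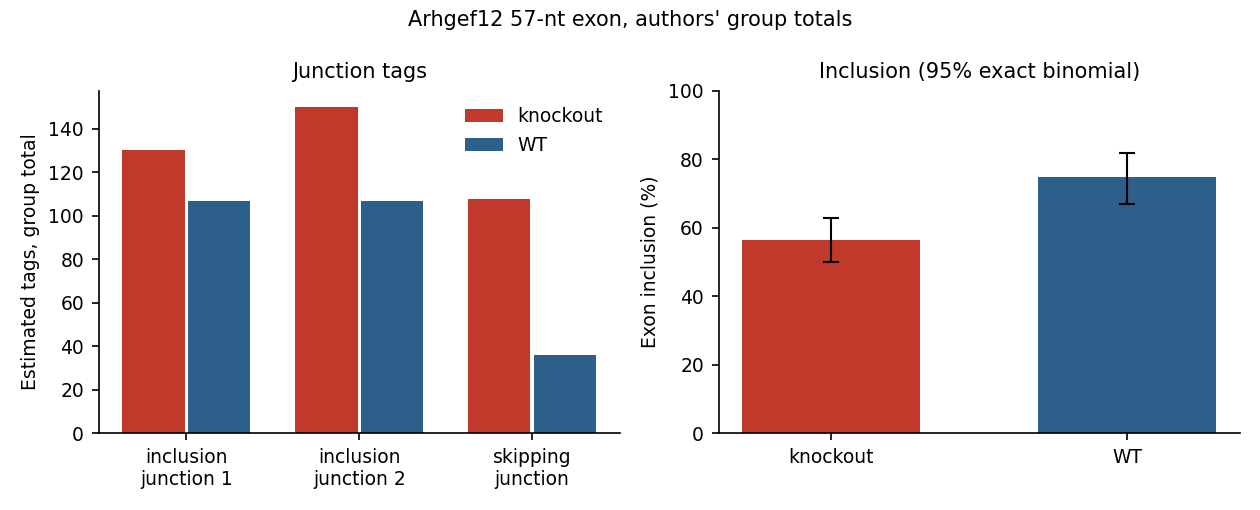
Arhgef12 cassette exon in forelimb RNA. Estimated junction tags (left) and inclusion in percent (right, error bars: exact 95% binomial intervals for counting error) are shown for the knockout and WT group totals of the authors' table. Skipping tags were 107.9 in knockout and 35.98 in WT, and inclusion was 56.5% in knockout and 74.8% in WT.

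The deeper knockout total is common to the table. All tags of the Arhgef12 event numbered 411.1 in knockout and 271 in WT, a ratio of 1.52, and the median ratio over the 98 events was 1.73, with 68 events above Arhgef12. The ratio of the event's total was thus below that of most listed events. Whether Arhgef12 RNA itself differed was not tested.

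The exon is 57 nt long, a length divisible by 3 that would encode 19 codons if all of it is translated. Of the 98 listed exons, 59 have a length divisible by 3, the median length is 80.5 nt, and 28 exons are 57 nt or shorter. The event, from one flanking exon to the other, spans chr9:42835280-42850758 on the minus strand (15479 nt), with an intron of 1994 nt upstream of the exon and 13244 nt downstream. The flanking exons are known only by their joint length of 184 nt, so the exon is placed within 239 nt, chr9:42848525-42848763. No annotation of that build was used here, and whether the exon is coding was not looked up.

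Arhgef12 stood in the middle of the listed falls. Of the listed events in the authors' deposited table, 45 were less and 53 more included in knockout, and absolute changes ran between 10.1 and 89.3 points. Arhgef12 was 20th of the falls by size, with 19 wider ones, and the median fall was -15.6 points. At the edge of the list, Spen had an adjusted p of 0.0498 in the authors' deposited table, and the smallest change listed was that of Gatad2a, -10.1 points.

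The 5 events nearest to Arhgef12 were found by the distance between the pairs of knockout and WT inclusion, over those 2 groups. All are in the authors' deposited table. Macf1, which crosslinks actin and microtubules, was included at 63.3% in knockout and 73.6% in WT (18-nt exon). Gatad2a, a subunit of a nucleosome remodelling complex, was at 57.9% in knockout and 68% in WT (16-nt exon). Cux1, a homeobox transcription factor, was at 56.5% in knockout and 83.3% in WT (66-nt exon). The zinc finger gene Zfp322a was at 54% in knockout and 84% in WT with a 75-nt exon, and the growth factor receptor Fgfr2 at 47.7% in knockout and 63.2% in WT with a 148-nt exon. The closest 4 were between 54 and 63.3% in knockout and between 68 and 84% in WT. Arhgef12 lay inside both ranges, which is favoured by choosing the events on these values. The exons of Macf1, Cux1 and Zfp322a have, like that of Arhgef12, a length divisible by 3, and those of Gatad2a and Fgfr2 do not.

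The authors' deposited table lists changed events only, so it is a weak check of the tissue. It lists 3.46% of all tested events, and holds 1 of 9 muscle markers (Dysf), 3 of 6 cartilage markers (Col2a1, Col11a2 and Acan) and 0 of 5 skin, 0 of 3 blood, 0 of 3 nerve and 0 of 3 endothelial markers. The marker lists were drawn up with earlier results of these data known. How many markers had a tested event was not counted, so their shares cannot be compared with that of events, and nothing is read from them.

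In the CLIP data, a smaller share of the Arhgef12 tags lay in 1 cluster near the 3′ end in ΔE2 forelimb and in C2C12 cells than in WT forelimb. The whole gene had 34, 18 and 22 tags in ΔE2 replicates 1, 2 and 3 (27 after joining replicates 2 and 3), 221 in the C2C12 set, and 26, 57 and 94 in WT replicates 1, 2 and 3. As tags per 1000000 tags of the library (CPM), these were 505 and 411 in the ΔE2 libraries, 402 in C2C12 (interval 351 to 458), and 734, 769 and 756 in WT. Both ΔE2 libraries and C2C12 lay below every WT library. The mean was 458 ± 66.9 in ΔE2 (SD, n = 2) and 753 ± 17.6 in WT (SD, n = 3), a ratio of 0.608, and C2C12 over the WT mean was 0.533. The interval, not an annotation, assigns these tags to Arhgef12. The minus strand held nearly all of them: the plus strand of the same interval had 0 in each forelimb library and 1 in C2C12. With 3 tags taken as the limit of a count of 0, that allows up to 84.7 CPM in the shallowest forelimb library.

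The difference lay in the 3′ cluster, chr9:42772589-42772818 on the minus strand, 230 nt long. It held 9 tags in ΔE2 replicate 1 and 1 tag in each of replicates 2 and 3, which was the same molecule. It held 24 tags in C2C12, and 19, 27 and 48 tags in WT replicates 1, 2 and 3. In CPM these are 133.8 (61.2 to 254) and 15.21 (0.385 to 84.8) in the ΔE2 libraries, 43.63 (28 to 64.9) in C2C12, and 536.5 (323 to 838), 364.3 (240 to 530) and 386.1 (285 to 512) in WT. The highest ΔE2 value was below the lowest WT value, and only the intervals of ΔE2 replicate 1 and WT replicate 2 overlapped between those groups. Means were 74.5 ± 83.8 CPM in ΔE2 (SD, n = 2) and 429 ± 93.8 in WT (SD, n = 3), a ratio of 0.174. Without ΔE2 replicate 1 the ratio was 0.0355, and with each shared molecule kept in 1 library it was 0.093. The ΔE2 libraries differed among themselves by more than their mean. In WT, the 94 tags of the cluster were 76 molecules, of which 13 were in 2 or more WT libraries and are counted in each. The WT libraries are thus not fully independent at the cluster.

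Tags of Arhgef12 outside the cluster were similar in CPM, which scales each library to its own total. They numbered 25 and 26 in the ΔE2 libraries, 197 in C2C12, and 7, 30 and 46 in WT. In CPM these were 371.6 and 395.6 in ΔE2, 358.1 in C2C12, and 197.7, 404.7 and 370 in WT, so the groups overlapped. The ΔE2 mean was 384 ± 16.9 (SD, n = 2) and the WT mean 324 ± 111 (SD, n = 3), a ratio of 1.18 that became 0.99 without WT replicate 1, the shallowest library. The cluster therefore held 26.5% (12.9 to 44.4) and 3.7% (0.0937 to 19) of the gene's tags in the ΔE2 libraries, 10.9% (7.08 to 15.7) in C2C12, and 73.1% (52.2 to 88.4), 47.4% (34 to 61) and 51.1% (40.5 to 61.5) in WT. Its share was -42.1 points in ΔE2 minus WT and -46.3 points in C2C12 minus WT. Shares in ΔE2 and C2C12 were each below every WT share. The limits of the cluster come from forelimb tags and it was chosen as deep in WT, so a lower share in C2C12 than in WT is favoured by the choice. The 3 C2C12 replicates are deposited as 1 combined set, so their spread is unknown and no test is given.

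**Figure D2:**
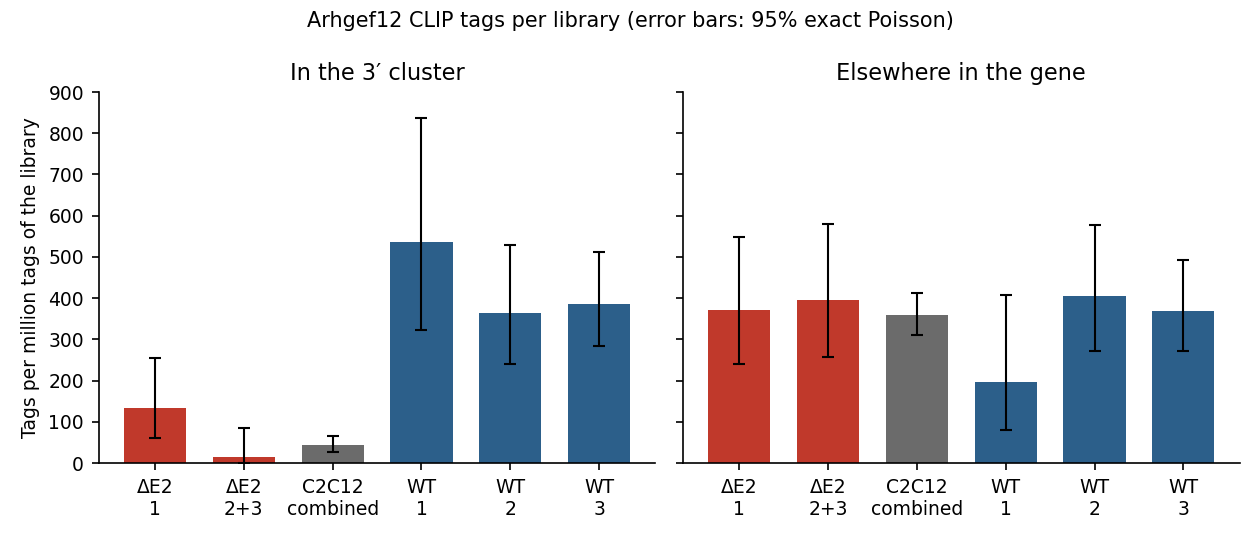
Arhgef12 tags in CPM of the library (bars; error bars: exact 95% Poisson intervals), in the 3′ cluster (left) and elsewhere in the gene (right), for the ΔE2 libraries, the combined C2C12 set and the WT libraries. In the cluster both ΔE2 libraries and C2C12 lie below 134 CPM and WT between 364 and 537, while elsewhere in the gene all but WT replicate 1 lie between 358 and 405.

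Counted against the other clusters, the 3′ cluster was among the deepest of WT forelimb. By WT tags it was 72nd of 191766, with 71 deeper. A quasi-likelihood fit in edgeR covered the 276 clusters with enough tags, with the tags of tested clusters, scaled by TMM, as library sizes. In CPM of those sizes, the 3′ cluster had a mean of 734 ± 782 in ΔE2 (SD, n = 2) and 3118 ± 406 in WT (SD, n = 3). The log2 fold, ΔE2 over WT, was -1.94 with a standard error of 0.51, and 6 clusters had a lower one. This fit called 62 of 276 clusters (22.5%) at an adjusted p of 0.05 or less, 44 higher and 18 lower (6.52%) in ΔE2. The count was 35 with DESeq2, 16 without WT replicate 2, 22 without WT replicate 3, and 0 of 238 in edgeR with WT replicates 2 and 3 joined, where 72 had an unadjusted p under 0.05. In 79 clusters (28.6%) every ΔE2 library was below every WT library. Since the cluster was chosen from this contrast, nothing is read from those shares. The split depends on the scaling: with all tags of a library as its size, 22 clusters were higher and 58 lower, and the median log2 fold of all tested clusters was -0.57, against -0.08 in the fit above. The fold of the 3′ cluster was -3.88 without ΔE2 replicate 1.

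By reads too, ΔE2 was below WT, but WT replicate 1, the highest WT library by tags, was the lowest by reads. The cluster had 27 reads in ΔE2 replicate 1, 37 in the joined ΔE2 library, and 109, 3688 and 4731 in WT replicates 1, 2 and 3. Per 1000000 reads of the library these are 4.16 and 1.02 in ΔE2, and 42.9, 543 and 616 in WT. There was a wide gap between WT replicate 1 and the other WT libraries. A single tag held 86.3% of the cluster's reads in WT replicate 2 and 45.4% in WT replicate 3, which is why tags and not reads are compared here.

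Of the 9 cluster tags in ΔE2 replicate 1, 6 were molecules also found in a WT library, with the same position and barcode. They had 1 to 4 reads each in ΔE2 replicate 1, and 2 to 2149 reads in the WT library where each was most abundant, always more than in ΔE2. Outside the cluster, 6 of the 25 tags of that library were also in WT. With every shared molecule kept only in the library where it had most reads, the cluster held 3 and 1 tags in the ΔE2 libraries (63.4 and 16.2 CPM) and 14, 18 and 44 in WT (551, 317 and 417 CPM). The ΔE2 libraries stayed below all WT libraries. How molecules came to be shared was not tested.

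The highest depth within the cluster was on the 3′ side of its centre in all 3 sets, and C2C12 had a second, slightly lower summit nearer the centre. Depth was highest at 42772629 to 42772647 in ΔE2 (6 tags), at 42772630 to 42772636 in C2C12 (9 tags) and at 42772638 to 42772639 in WT (45 tags). In the single WT libraries the summit was at 42772651 in replicate 1, 42772638 to 42772653 in replicate 2 and 42772635 to 42772639 in replicate 3. The summit of WT replicate 3 overlapped those of ΔE2 and C2C12. The ΔE2 and WT profiles are not independent, since 6 of the 9 cluster tags of ΔE2 replicate 1 were molecules also found in WT. The 3′ side of the cluster's centre held 92.7% of the tag bases in ΔE2, 79% in C2C12 and 77.6% in WT. Across the WT libraries that share was 93.3, 62 and 80.7%, a range that takes in the ΔE2 and C2C12 values.

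**Figure D3:**
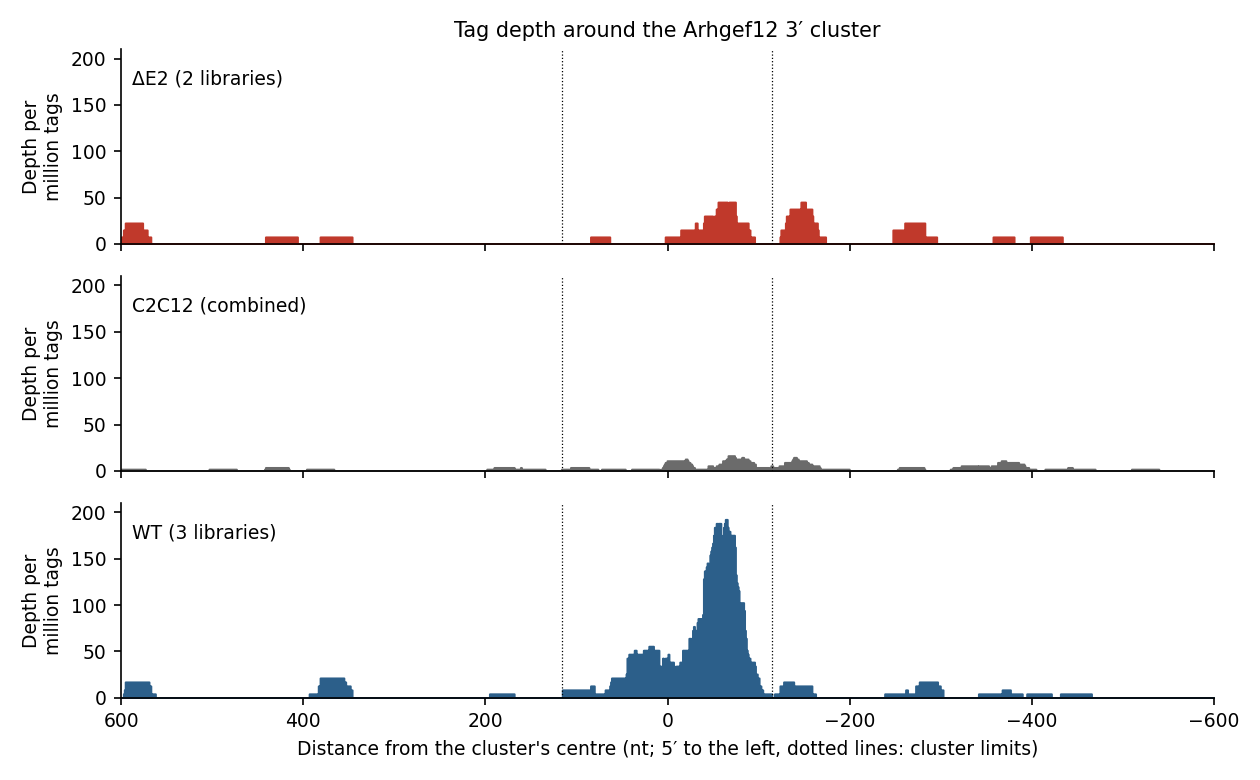
Depth of tags in CPM (y axis, joined over the libraries of a set) against distance from the centre of the Arhgef12 3′ cluster in nt (x axis, transcript 5′ to 3′ from left to right), in ΔE2, C2C12 and WT, with the cluster's limits dotted. The highest summit within the limits has 6 tags in ΔE2, 9 in C2C12 and 45 in WT, and the neighbour beyond the 3′ limit has 6 tags in ΔE2, 9 in C2C12 and 4 in WT.

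The sites next to the cluster held few tags. Its neighbour on the 3′ side, chr9:42772530-42772585, had 3 tags in ΔE2 replicate 1 and 3 in the joined library, 9 in C2C12, and 0, 2 and 2 in WT. That is 6 tags in ΔE2 and 4 in WT, although the ΔE2 libraries hold fewer tags in all. A site at 42772314-42772361 had 1 tag in ΔE2, 9 in C2C12 and 2 in WT, and one at 42772401-42772464 had 3 tags in ΔE2, 2 in C2C12 and 5 in WT. Upstream, a site at 42773050-42773096 had 1 tag in ΔE2, 1 in C2C12 and 5 in WT. Such counts are too low for a comparison at this depth.

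Together with the cluster these sites form a stretch of dense tags at the 3′ end, chr9:42772164-42777825 (5662 nt), bounded by the first gap over 500 nt. The stretch without the cluster held 148.6 and 152.1 CPM in ΔE2, 138.2 in C2C12, and 56.48, 242.8 and 152.8 in WT. The ΔE2 and C2C12 values lay inside the WT range. In the remainder of the gene, the surroundings of the exon left out, CPM were 193.2 and 228.2 in ΔE2, 218.1 in C2C12, and 113, 121.4 and 185 in WT. There ΔE2 and C2C12 lay above every WT library, with WT on 4, 9 and 23 tags. Per kb the stretch without the cluster held 3.68 tags in ΔE2 (20 tags), 14 in C2C12 (76 tags) and 7.18 in WT (39 tags), and the remainder of the gene, the surroundings of the exon left out, held 0.204 in ΔE2, 0.873 in C2C12 and 0.262 in WT. The surroundings of the exon, within 300 nt of its window, held 3.58 in ΔE2 (3 tags), 1.19 in C2C12 (1 tag) and 9.54 in WT (8 tags). These densities are pooled raw counts and follow the depth of each set, so only their order within a set is read. Among these parts the cluster was densest in each set, with 43.5 tags per kb in ΔE2, 104 in C2C12 and 409 in WT, and the remainder of the gene sparsest. The cluster was chosen as deep in WT, so its rank there was favoured by the choice. The surroundings of the exon were denser than the stretch without the cluster in WT, on 8 tags that count 1 molecule in each WT library. In ΔE2 the 2 densities were nearly equal (3.58 and 3.68), and in C2C12 the surroundings were sparser, on 1 tag. On so few tags no difference between the sets is read from these orders. Single sites of the stretch could be denser than the cluster. The 56-nt site at 42772530-42772585 held 6 tags in ΔE2 and 9 in C2C12, against 10 and 24 in the 230-nt cluster.

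**Figure D4:**
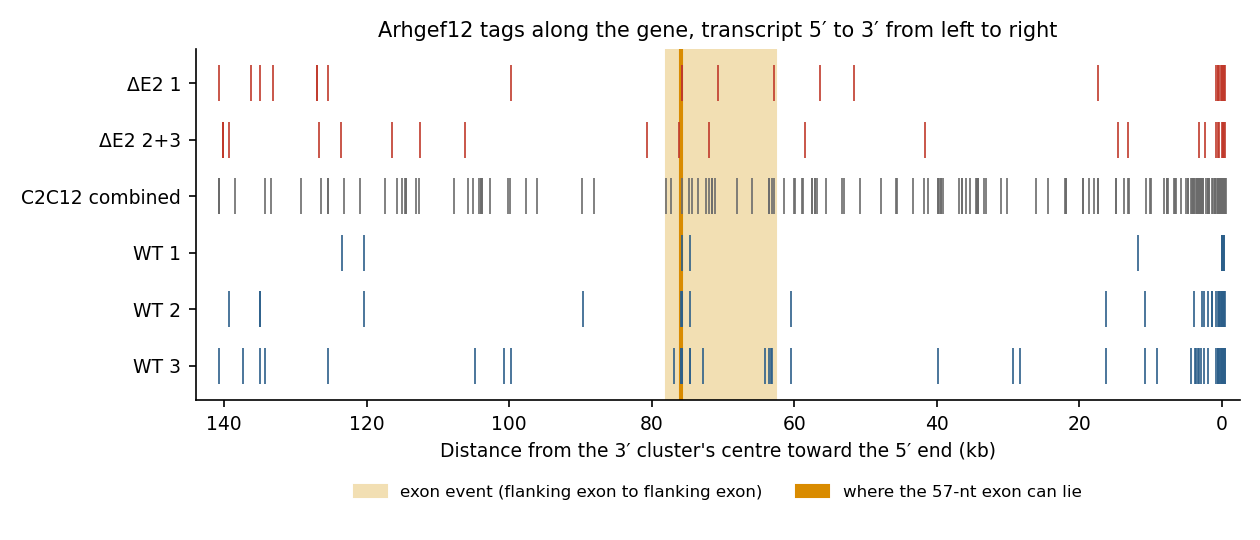
Each tick is an Arhgef12 tag of the ΔE2 libraries, the combined C2C12 set or a WT library (rows), placed by its distance from the 3′ cluster's centre in kb, transcript 5′ to 3′ from left to right. Shading marks the exon event and the place of the 57-nt exon, 75.7 kb upstream of the cluster, where WT has 8 tags within 300 nt of the window, ΔE2 3 and C2C12 1. Among the WT tags there, 1 molecule is counted in each WT library.

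Outside the 3′ cluster, tags were thin. Of the 76 forelimb clusters of Arhgef12, 44 were 1 tag, 6 had 5 or more tags over the 6 labelled libraries, and the deepest after the 3′ cluster had 10 tags against its 105. Tags of both genotypes were in 15 clusters, 23 held ΔE2 tags alone, and 38 held WT tags alone. C2C12 tags touched 25 of the 76. Only 3 of the 76 had a tag in all 3 WT libraries. In those other than the 3′ cluster, the only tag of WT replicate 1 was a molecule also found in WT replicates 2 and 3.

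A member of those 3 lies at the edge of the window within which the cassette exon is placed, 75.7 kb upstream of the 3′ cluster. Its distance from the exon itself is not known. At chr9:42848482-42848533, which overlaps the 3′ edge of the window that holds the exon, ΔE2 replicate 1 had 2 tags and the joined ΔE2 library 0, C2C12 had 0, and WT replicates 1, 2 and 3 had 1, 2 and 2. The tag of WT replicate 1 is a molecule also found in WT replicates 2 and 3, with 1, 1 and 46 reads in replicates 1, 2 and 3. The WT libraries are thus not independent at this site, and that molecule is counted in each of them below. Within 300 nt of the window, there were 2 and 1 tags in the ΔE2 libraries, 1 in C2C12, and 1, 3 and 4 in WT, or 29.73 and 15.21 CPM in ΔE2, 1.818 in C2C12, and 28.24, 40.47 and 32.18 in WT. ΔE2 and WT overlapped. The C2C12 tag lies 56 nt downstream of the window, and the tag of the joined ΔE2 library lies upstream of it, at 42848828-42848862. Over the whole event, flanking introns included, CPM were 59.5 and 30.4 in ΔE2 (4 and 2 tags), 30.9 in C2C12 (17 tags), and 56.5, 54 and 96.5 in WT (2, 4 and 12 tags). A difference between ΔE2 and WT at the exon was not detectable at this depth. C2C12 lay below every forelimb library there, on 1 tag. Whether any tag there bears on the inclusion of the exon was not tested.

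Clusters with a pattern like that of the 3′ cluster were found by the distance between log2 CPM of tested clusters over the 5 libraries, each cluster centred on its own mean. The nearest of the 276, chr9:43143209-43143462 on the plus strand, was at distance 0.694 and had a log2 fold of -2.29. Next came chr5:135853644-135853725 on the minus strand (distance 0.818, log2 fold -1.49) and chr13:89796339-89796448 on the minus strand (0.925, -1.53). They were followed by chr5:93602896-93603002 on the plus strand (0.943, -1.69) and chr15:101689579-101689736 on the minus strand (0.969, -1.13). In CPM of the scaled library sizes of the edgeR fit, the first of these had 1716 and 181 in the ΔE2 libraries and 5607, 5493 and 4265 in WT. On that scale the 3′ cluster had 1287 and 181 in ΔE2 and 3551, 2746 and 3056 in WT, so the first is deeper in WT. In the first 4 of these clusters, both ΔE2 libraries were below all WT libraries, and in the fifth they overlapped. Over all tested clusters, the former held in 79 of 276 (28.6%). The nearest clusters were chosen by their pattern over these same libraries, so that order is favoured by the choice and nothing is read from it. The genes of the nearest clusters are not named, since no annotation of that build was used here.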

How the data were processed

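Members and gene lists were chosen with earlier results of these data known. Per the submitters' processing notes, TopHat 1.3.2, Bowtie and Novoalign were used with build mm9; neither those notes nor the file headers say which tool made which file, or how CLIP tags were filtered. The authors' deposited exon table holds estimated counts of junction tags summed per group, with the authors' p-value and adjusted p-value per event. It was used as deposited, and inclusion was recomputed from it for 98 of 98 events within 0.0005. The deposited CLIP files list unique tags, with a 5-base barcode and, in the forelimb files, a read number; repeated C2C12 lines were counted once.

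Overlapping forelimb tags (1 nt or more) on a strand were joined into clusters, and tags per cluster and library were counted. Clusters past filterByExpr (minimum count 10) were fitted in edgeR 4.0.16 (R 4.3.3) with TMM, the quasi-likelihood test, ΔE2 against WT with no covariate, and Benjamini-Hochberg adjustment. The fit was tested on simulated data. DESeq2 1.42.0 was an alternative. Counts, intervals and figures used Python 3.11.15, scipy 1.17.1 and matplotlib 3.10.9. Forelimb libraries held 35413 to 124309 tags, so a count of 0, with 3 tags taken as its limit, allows 24.1 to 84.7 CPM (tags per 1000000). Replicates are as labelled, except that ΔE2 replicates 2 and 3 were joined. Spread between them may be partly technical where molecules are shared. Named events and clusters are the 5 nearest to Arhgef12 in each table. Alternatives were scaling, filter, tag collapsing, joining of libraries, and leaving out each library. No mm9 sequence or annotation was used. A pathway gene list is not reported here.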

Additional observations from a re-analysis of the deposited data

How the results depend on the processing

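The direction of the 3′ cluster's log2 fold, ΔE2 over WT, was fixed by its choice, so only its size is given. The fold, -1.94 in the report, was -2.60 with no filter and -2.76 with each shared molecule in 1 library, and ran between -3.88 and -1.73 when libraries were left out in turn. Clusters called numbered 62, and 35 with DESeq2, 19 with no filter, 41 with tags collapsed by 5′ end, and 16 to 90 when libraries were left out (16 without WT replicate 2, 22 without WT replicate 3). With tags of tested clusters as library size the split was 28 higher and 46 lower. With WT replicates 2 and 3 as 1 library, edgeR called 0 of 238, of which 72 had an unadjusted p under 0.05; DESeq2 was not run there. The cause of these shifts was not tested. The ratio of the gene's CPM was 0.545 to 0.63, and that outside the cluster 0.99 to 1.35, when libraries were left out; the share of the cluster, ΔE2 minus WT, was -53.5 to -34.1 points. With C2C12 lines as deposited, the C2C12 over WT ratio was 0.572. The exon difference was -20.2 to -16.7 points. Widening the interval to the gene's 5′ end, chosen after seeing the data, added 0 tags. Same-numbered libraries had negative correlations of their deviations (-0.318, -0.204 and -0.24). Deviations were taken from each group's mean, and ΔE2 replicates 2 and 3 share molecules, so these values are not independent. They cannot tell whether the numbers pair the libraries. With a replicate block over the 6 labelled libraries the fold was -2.40 (standard error 0.50) and 64 clusters were called (36 higher, 28 lower). Depth limits every site of Arhgef12 other than the 3′ cluster.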
